A study of Mus musculus with 2 samples.

Results

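The miR-99/100 and miR-125 families and the related miR-10 pair were followed through 9 probes of a mouse miRNA array, out of 1900 miRNA probes in all. The members are mmu-miR-99a-5p, mmu-miR-99b-5p, mmu-miR-99b-3p, mmu-miR-100-5p, mmu-miR-125a-5p, mmu-miR-125a-3p, mmu-miR-125b-5p, mmu-miR-10a-5p and mmu-miR-10b-5p, written below without the species prefix. They were selected by exact probe name and family. The families were taken up after the difference of miR-99b-5p between these arrays had been seen, so the differences below describe the arrays and were not tested. The material was total RNA of isolated colonic epithelial cells from C57BL/6 mice aged 8 weeks. The DSS sample (n = 1 array) came from colon inflammation induced with dextran sulfate sodium, a polysaccharide toxic to the lining of the colon, at 2.5% in the drinking water for 5 days. The control sample (n = 1 array) came from mice labelled as control. Both groups share strain, age, tissue and labelling dye, and the labels do not say how many mice stand behind a sample. With 1 array per condition and 1 spot per probe, no difference below has a replicate check.

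MicroRNAs guide Argonaute proteins to messenger RNAs mainly through the seed, the bases at positions 2 to 8 of the mature strand. The miR-99/100 family is known to repress mTOR and the IGF1 receptor in several cell types, and the miR-125 family, the mammalian relative of worm lin-4, represses LIN28 and, in leukocytes, regulators of NF-kB and of cell death. In mice these families share clusters with let-7 miRNAs, while miR-10a and miR-10b lie among the Hox genes. miR-125b and its cluster partners are often abundant in mesenchymal cells, and miR-10a is found in gut epithelium and in dendritic cells.

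The mature strands of all 9 members were found in RefSeq on build GRCm38.p6. Strands printed here are those that carry the comparison between the clusters, with the seed in capitals. The 3 strands of the miR-99/100 seed are the following:
miR-99b-5p: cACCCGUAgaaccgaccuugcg
miR-99a-5p: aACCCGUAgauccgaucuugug
miR-100-5p: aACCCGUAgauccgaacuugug
The miR-125 strands and miR-351-5p, another array miRNA with their seed, are these:
miR-125a-5p: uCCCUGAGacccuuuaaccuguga
miR-125b-5p: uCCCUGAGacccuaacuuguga
miR-351-5p: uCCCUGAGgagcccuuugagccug
The miR-10 seed is close to that of miR-99/100 without being the same:
miR-10a-5p: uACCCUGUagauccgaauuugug
miR-10b-5p: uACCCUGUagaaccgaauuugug
The opposite strands of the chromosome 17 hairpins carry other seeds:
miR-99b-3p: cAAGCUCGugucuguggguccg
miR-125a-3p: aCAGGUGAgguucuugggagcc

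Counting positions from 1 at the 5′ end and giving the base of the first miRNA first, miR-99b-5p differed from miR-99a-5p at C1A, A11U, C16U and C21U. It differed from miR-100-5p at 4 positions too, C1A, A11U, C16A and C21U. miR-100-5p and miR-99a-5p differ at A16U alone, and miR-10b-5p and miR-10a-5p at A12U alone. miR-125a-5p and miR-125b-5p share their first 13 bases, whereas miR-351-5p shares 8 bases with either. miR-10a-5p and miR-100-5p share an unbroken run of 11 bases. The sequences of the array's probes were not available for use here, so how well a probe separates such neighbours was not tested.

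miR-99b-5p (chr17:17830194-17830215, + strand) and miR-125a-5p (chr17:17830817-17830840, + strand) lie with let-7e in a cluster of 683 bases from the first to the last mature base, overlapping the protein-coding gene Spaca6. miR-99a-5p (chr16:77598940-77598961, + strand) starts 732 bases before let-7c and shares a stretch of 47400 bases with 1 copy of miR-125b (chr16:77646279-77646300, + strand). miR-100-5p (chr9:41531437-41531458, + strand) and the other copy of miR-125b (chr9:41581940-41581961, + strand) overlap the long noncoding RNA gene Mir100hg and span 50565 bases with let-7a-2. miR-10a-5p (chr11:96317186-96317208, + strand) overlaps Hoxb3. miR-10b-5p (chr2:74726074-74726096, + strand) overlaps Hoxd3 and Hoxd4. The annotation used here gives gene ends only, so exon and intron were not assigned. Both copies of miR-125b give the same mature strand, and 1 probe reads their sum.

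**Figure D1:**
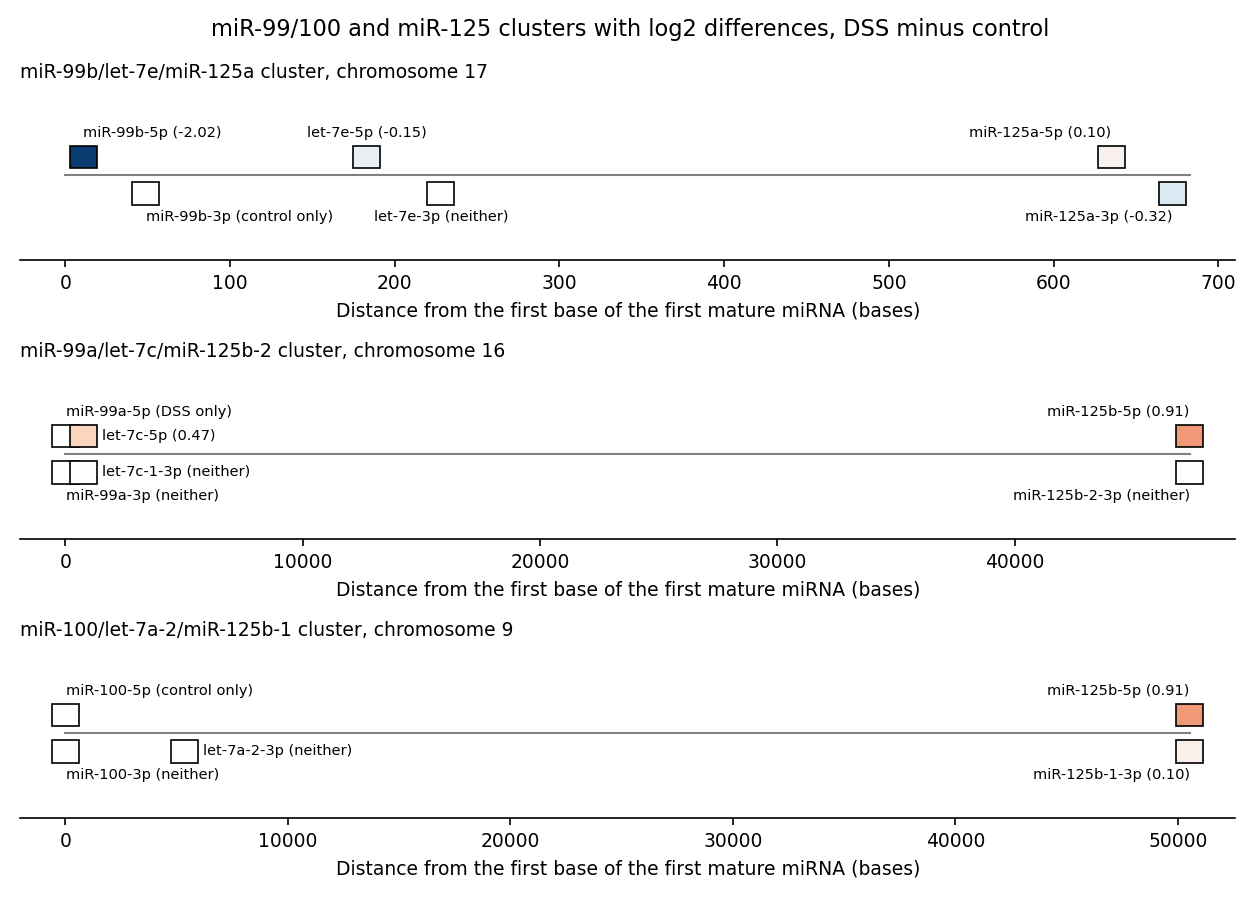
Maps of the 3 clusters by distance in bases from the first mature base, with 5p strands above the line and 3p strands below; boxes are not to scale in width and each map has its own axis. Colour and number give the log2 difference, DSS minus control (blue below 0, red above), where both arrays measured the probe, and open boxes name the array or arrays that measured it: miR-99b-5p stands at −2.02, and miR-125b-5p, which scaling to the spike control spots turns below 0, at 0.91.

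Intensities were read against blank spots, which averaged 121.8 on the DSS array and 92.7 on the control array. A probe counted as measured above the blank mean plus 2 SD, a limit of 130.9 on the DSS array and 99.6 on the control array. The DSS array measured 1169 of 1899 usable miRNA probes and the control array 1070, of which 995 were measured on both. The DSS array was also brighter at the spike control spots, by 2.05-fold at Spike Control 1 and 1.88-fold at Spike Control 2 after subtraction of the blanks. Differences are given on the log2 scale after background correction with an offset of 50 and quantile normalisation, which shrinks the folds of dim probes.

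miR-99b-5p, the miR-99/100 strand of the compact chromosome 17 cluster, was the member with the largest difference. Its spot read 194.7 on the DSS array, against 828 on the control array. Over blanks this was 72.9 on the DSS array and 735 on the control array, so the probe was far above the limit on both. The normalised values were 7.25 (DSS) and 9.27 (control), a log2 difference of −2.02 or 4.04-fold lower on the DSS array. Subtraction of the background value listed for each spot reduced the difference to −0.73, short of 2-fold. Of the 995 miRNAs measured on both arrays 1 had a lower value, miR-714, which is named here after its value was seen. Within its block of the array, 5 spots touched the miR-99b-5p spot, that of miR-99a-5p among them. Those neighbours read 118.2 to 134.9 on the DSS array and 88.2 to 99.4 on the control array, so none of the 5 was bright on either. The spot lies at the edge of its block, and spots beyond that edge were not examined.

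The probes of miR-99a-5p and miR-100-5p, which share the seed of miR-99b-5p, were at the limit of what the arrays could read. miR-99a-5p read 134.9 on the DSS array, just above the limit, and 99.4 on the control array, just below it. Its bound came to 1.043-fold higher on the DSS array, a log2 size of 0.061 against an SD of 0.21 from repeated spots and blanks (described below). miR-100-5p read 129.4 on the DSS array, below the limit, and 103.2 on the control array, above it. Its bound came to 1.07-fold lower on the DSS array, a log2 size of 0.098 against an SD of 0.22. Neither bound exceeded its SD, so neither fixed a direction. On the control array, where the miR-99b-5p spot was bright, the miR-99a-5p spot stood 6.74 over blanks and that of miR-100-5p 10.6 over blanks. Negative control spots averaged 4.31 ± 4.30 (Negative Control 1, n = 16 spots), −3.93 ± 3.74 (Negative Control 2, n = 8 spots) and 13.2 ± 2.34 (Negative Control 3, n = 8 spots) over blanks there (SD). On the DSS array the miR-99a-5p spot stood 13.1 over blanks and that of miR-100-5p 7.61, and the same negative controls averaged 15.8 ± 8.01, 2.23 ± 7.74 and 9.58 ± 4.10. On each array both miRNAs thus lay below the mean of the brightest negative control and above that of the dimmest.

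The opposite strand of the miR-99b hairpin was dim as well. miR-99b-3p read 128.7 on the DSS array, below the limit, and 103.5 on the control array, above it. It stood 6.88 (DSS) and 10.8 (control) over blanks, on each array again between the means of the dimmest and the brightest negative control. Its bound came to 1.07-fold lower on the DSS array, a log2 size of 0.10 against an SD of 0.22, and so fixed no direction. So close to the limits, a difference as large as that of miR-99b-5p could not be read on the strand opposite it.

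The miR-125a strands of the same cluster differed far less than miR-99b-5p. miR-125a-5p read 149.97 on the DSS array and 116.5 on the control array, or 28.2 (DSS) and 23.9 (control) over blanks. Its normalised values were 6.51 (DSS) and 6.42 (control), a log2 difference of 0.10, which scaling to the spike control spots turned to −0.85. miR-125a-3p, the brighter strand on both arrays, read 219.7 on the DSS array, against 296.0 on the control array. It stood 97.9 (DSS) and 203.3 (control) over blanks. Its log2 difference was −0.32, or 1.25-fold lower on the DSS array. Between miR-99b and miR-125a on the chromosome, let-7e-5p read 141.7 on the DSS array and 122.9 on the control array. Its difference was −0.15, and let-7e-3p was measured on neither array. Of the 4 strands of this cluster measured on both arrays, 3 were therefore lower on the DSS array and 1 higher. Over all 995 miRNAs 501 were lower and 483 higher. The differences of let-7e-5p and miR-125a-5p were 0.75 and 0.49 times the SD from repeated spots described below, so their signs carry little. miR-99b-5p stood apart from the other 3, which lay between −0.32 and 0.10.

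miR-125b-5p, the only 5p member of the chromosome 16 and chromosome 9 clusters that both arrays measured, differed the other way. It read 278.0 on the DSS array and 183.0 on the control array, which is 156.2 (DSS) and 90.3 (control) over blanks. The normalised values were 8.04 (DSS) and 7.13 (control), a log2 difference of 0.91 or 1.88-fold higher on the DSS array, although scaling to the spike control spots turned it to −0.43. Relative to the median of all miRNAs it stayed at 0.60 with that scaling. Only 8 of the 995 miRNAs measured on both arrays had a higher value. The 5 spots around it within its block read 123.97 to 149.97 on the DSS array and 90.4 to 116.5 on the control array.

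The 3p strands, which differ between the copies of miR-125b, gave little to tell the loci apart. miR-125b-1-3p, of chromosome 9, read 139.4 on the DSS array and 103.5 on the control array, just above both limits, with a difference of 0.10. miR-125b-2-3p, of chromosome 16, read 127.4 on the DSS array and 95.4 on the control array, below both limits. Of the 6 opposite strands of the members' hairpins outside the member list, miR-125b-1-3p was the 1 measured on both arrays, and 5 were measured on neither.

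The let-7 partners of these clusters were measured only through strands that other loci also make. let-7c-5p read 242.3 on the DSS array and 198.6 on the control array, with a difference of 0.47, and let-7a-5p read 223.7 on the DSS array and 181.8 on the control array, with a difference of 0.41. Scaling to the spike control spots moved the median of all miRNAs to −1.02, so that directions of this size hold relative to other miRNAs only. The strands specific to the clusters, let-7c-1-3p and let-7a-2-3p, were measured on neither array.

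The miR-10 pair, whose strands differ by 1 base, differed by little between the arrays. miR-10a-5p, of the Hoxb cluster, read 156.6 on the DSS array and 130.7 on the control array, or 34.8 (DSS) and 38.0 (control) over blanks. Its log2 difference was 0.05. miR-10b-5p, of the Hoxd cluster, read 146.4 on the DSS array and 127.6 on the control array, or 24.7 (DSS) and 34.9 (control) over blanks, with a difference of −0.12. Both opposite strands, miR-10a-3p and miR-10b-3p, were measured on neither array.

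**Figure D2:**
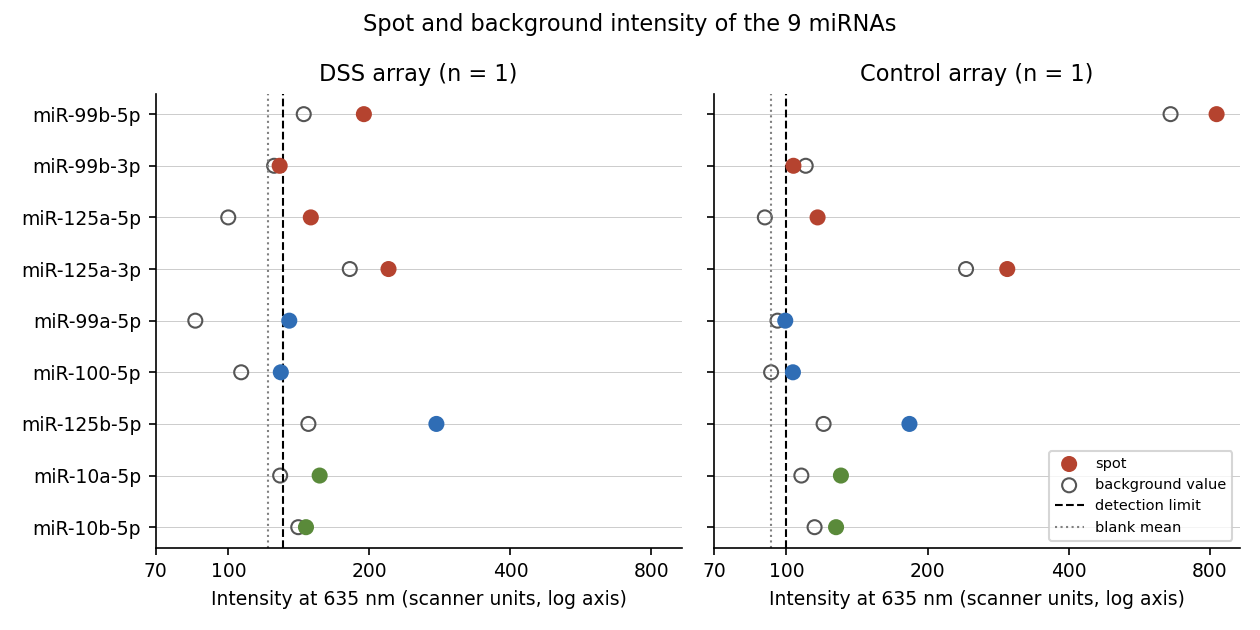
Spot intensity (filled) and background value (open) of the 9 miRNAs in scanner units on a log axis, with the DSS array on the left and the control array on the right (1 spot each; red for the miR-99b and miR-125a cluster, blue for miR-99a, miR-100 and miR-125b, green for miR-10; the legend shows the filled symbol in red). Dashed lines mark the detection limits of 130.9 (DSS) and 99.6 (control) and dotted lines the blank means; miR-99b-5p stands at 194.7 on the DSS array and 828 on the control array, and miR-99b-3p, miR-99a-5p and miR-100-5p lie at the limits.

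Among the 9 members, both arrays measured 6, the DSS array alone measured 1, the control array alone measured 2, and 0 were missed by both. At 2-fold or more, 1 of the 6 was lower on the DSS array, miR-99b-5p, where the background over all 995 miRNAs was 1.01%. At the same threshold 0 of 6 were higher, with a background of 0.503%. The 6 differences ran from −2.02 to 0.91 with a median of −0.03, and 3 lay above 0 and 3 below. Over all 995 miRNAs the median was −0.0025, with 483 above 0 and 501 below. At 1.5-fold, miR-125b-5p was added on the higher side, where the background was 3.22% (7.44% in either direction). In the authors' deposited table miR-99b-5p was listed at 57.3 for DSS and 413.8 for control and miR-125b-5p at 122.9 for DSS and 50.8 for control. Those values give log2 differences of −2.85 and 1.27, and 1 of 6 members was lower and 1 higher at 2-fold, where the backgrounds were 4.12% and 8.94%. The same 2 members passed 2-fold when the blanks were subtracted or the offset set to 0, with backgrounds of 7.84% and 4.12% in either direction. When the background listed for each spot was subtracted, 0 of 6 passed it and miR-99b-5p was no longer among those called, where the background over all miRNAs was 4.22% in either direction. With scaling to the spike control spots 3 of 6 passed it on the lower side, miR-99b-5p, miR-125a-3p and miR-10b-5p, where the background was 55.2%.

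**Figure D3:**
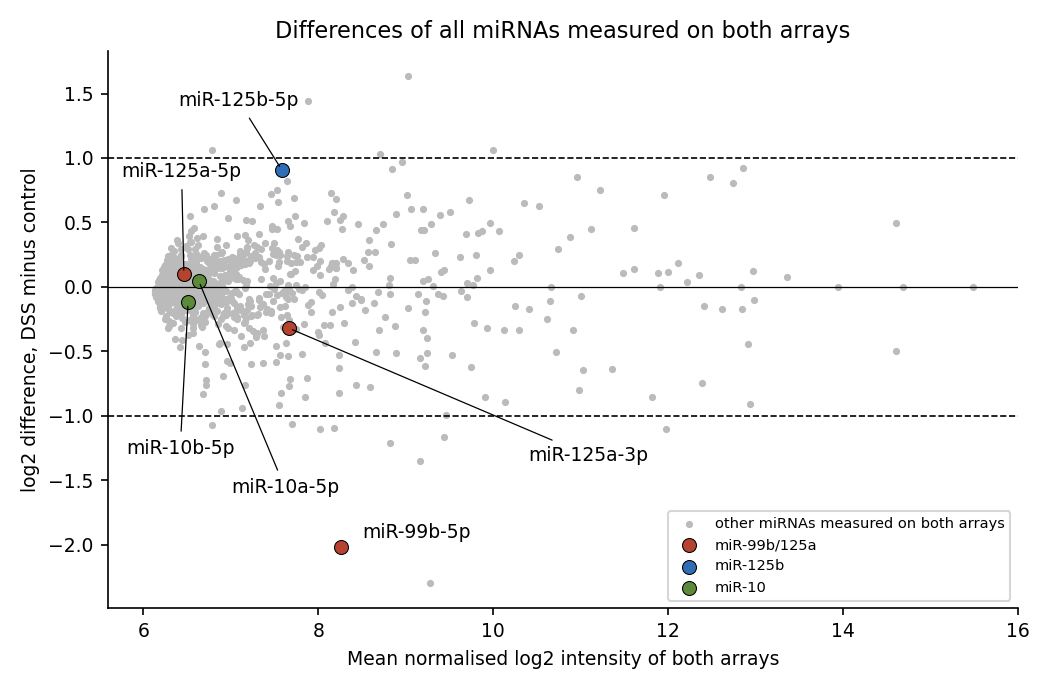
Log2 difference, DSS minus control, against the mean normalised log2 intensity of both arrays for the 995 miRNAs measured on both (grey) and the 6 members among them (coloured by cluster). Dashed lines mark 2-fold; miR-99b-5p (−2.02) lies below the lower line with 1 miRNA further down, miR-125b-5p (0.91, below 0 with scaling to the spike control spots) lies just under the upper line, and the other 4 members lie between −0.32 and 0.10.

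The chromosome 17 locus and the chromosome 16 and 9 loci were then compared through the 5p strands measured on both arrays. The mean log2 difference was −0.96 for miR-99b-5p and miR-125a-5p and 0.91 for miR-125b-5p alone, since miR-99a-5p and miR-100-5p could not enter. The locus means thus lay −1.87 apart, and a single spot on each array carries each end of that distance. The contrast does not extend evenly over both families: within the miR-125 seed, miR-125a-5p (0.10) lay below miR-125b-5p (0.91), while within the miR-99/100 seed only miR-99b-5p could be read. The other array miRNAs with the miR-125 seed were mixed. miR-351-5p read 273.1 on the DSS array and 279.6 on the control array, with a difference of 0.23. miR-6394 differed by −0.27, and miR-6367 was measured on the DSS array only.

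Spots repeated within an array gave the measure of error used here. The SD of log2 brightness was taken over 8 repeated spots for 6 bright control probes per array, chosen on each array alone. S-Probe1 entered for the DSS array only and S-Probe6 for the control array only. The SD lay between 0.052 and 0.18 on the DSS array and between 0.089 and 0.15 on the control array. Together with the spread of the blanks this amounted to an SD of 0.17 for the difference of miR-99b-5p, 0.17 for miR-125b-5p and 0.17 for miR-125a-3p. The differences of miR-99b-5p and miR-125b-5p were 11.7 and 5.33 times that SD, and that of miR-125a-3p was 1.87 times. miR-125a-5p, miR-10a-5p and miR-10b-5p differed by less than their SD of spots, at 0.49, 0.26 and 0.61 times. This spread covers spots of 1 hybridisation and leaves out the spread between mice, cell isolations and arrays. Between the arrays the control probes did not move alike. Control probes bright on both were higher on the DSS array, from 1.88-fold (Spike Control 2) to 2.28-fold (S-Probe26). S-Probe6 went the other way, at 19.8 over blanks on the DSS array and 96.3 on the control array (means of 8 spots). The multiples of the SD above do not include that scatter.

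The background value that the files list for each spot followed the brightness of the spot itself. For miR-99b-5p it was 144.9 on the DSS array and 660.3 on the control array, or 74.4% (DSS) and 79.8% (control) of the spot, while for its neighbouring spots it lay between 85.01 and 123.5 on the DSS array and between 75.04 and 95.7 on the control array. Spot minus background was 49.8 for miR-99b-5p on the DSS array, where blank spots gave 26.1 ± 15.03, and 167.6 on the control array, where blank spots gave 8.56 ± 7.54 (SD, n = 896 spots each). By spot minus background, miR-99b-5p was thus within 2 SD of the blanks on the DSS array and outside them on the control array. Without that subtraction its spot stood 16.1 blank SDs over the blanks on the DSS array. For miRNA spots above 1000, the median listed background was 73.4% (DSS) and 84.2% (control) of the spot. The listed background exceeded the spot at 286 (DSS) and 276 (control) miRNA probes, so a value within the blanks by this measure need not mean a dim spot. For miR-125b-5p spot minus background was 129.8 on the DSS array and 63.0 on the control array, outside 2 SD of the blanks on both. When the background was subtracted before the offset and normalisation, miR-99b-5p differed by −0.73 and miR-125b-5p by 0.60.

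**Figure D4:**
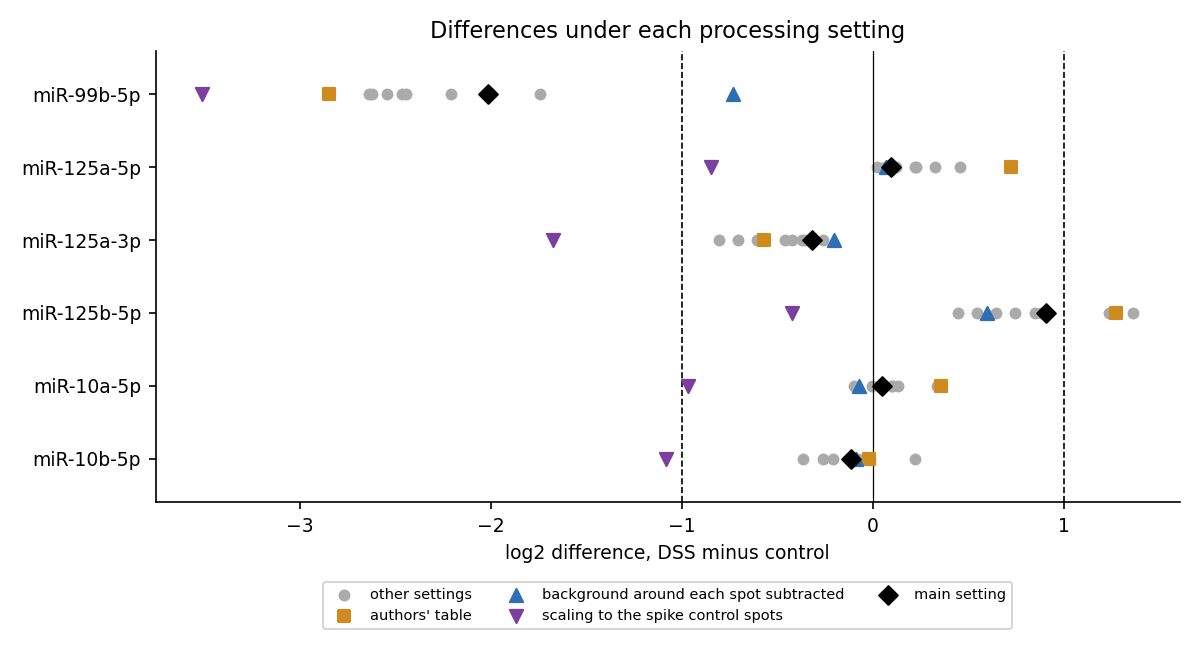
Log2 difference, DSS minus control, of the 6 members measured on both arrays under the main setting (black diamonds) and 13 other settings, with dashed lines at 2-fold. miR-99b-5p lies below 0 under all of them, from −3.51 to −0.73, while miR-125b-5p lies above 0 under all but the scaling to spike control spots (−0.43).

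By distance in the pair of normalised values (2 arrays), the miRNAs most like miR-99b-5p were miR-7030-5p (distance 0.66), miR-7224-5p (0.73) and miR-8090 (0.84), with log2 differences of −1.10, −1.10 and −0.83. Those most like miR-125b-5p were miR-7219-5p (0.10), miR-6901-5p (0.14) and let-7b-5p (0.19), with differences of 0.82, 0.75 and 0.66. The nearest miRNA thus lay further from miR-99b-5p than the third nearest did from miR-125b-5p.

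Markers of the labelled cells and of other cells were read beside these values. The miR-200 family, which holds epithelial identity, was measured in 5 of 5 members on the DSS array and 4 of 5 on the control array, and its summed brightness over blanks, with spots below the blanks taken as 0, was 537.9 on the DSS array and 545.6 on the control array. After normalisation 4 of the 4 measured on both arrays were higher on the DSS array, by 0.20 to 0.68. With no scaling 3 of 4 were higher, and with scaling to the spike control spots 0 of 4. Relative to the median of all miRNAs, 3 of 4 were higher under either of these, from −0.26 to 0.23. With the listed background subtracted the family ran from −0.044 to 0.88, with 3 of 4 higher. Over all 995 miRNAs, 48.5% were higher after normalisation, 39.3% with no scaling, 0.10% with spike scaling and 49.4% with the listed background subtracted. The gut epithelial miR-192, miR-194 and miR-215 were measured on both, with sums of 411.8 (DSS) and 375.6 (control). Their differences were 0.43 to 0.55, and −0.95 to −0.56 with spike scaling (0.08 to 0.47 relative to the median of all miRNAs). With the listed background subtracted they ran from −0.055 to 0.028, with 1 of 3 higher (49.4% over all 995 miRNAs). Of 8 smooth muscle and fibroblast miRNAs 7 were measured on each array, miR-143-3p and miR-145a-5p among them. Strands abundant in mesenchymal cells thus read above the detection limit in both samples. Spot minus listed background of miR-143-3p was 29.9 (DSS) and 4.29 (control), and of miR-145a-5p 123.2 (DSS) and −44.9 (control). Both control values lay below the mean of the blank spots by that measure. The sum over the 8 miRNAs was 888.6 on the DSS array and 1118 on the control array. Single members stood between 8.52 and 466.6 over blanks (DSS) and between 0.86 and 561.6 (control). miR-1a-3p, of muscle, was measured on neither array. The 7 differences ran from −0.23 to 0.44 after normalisation, with 5 above 0 and 2 below, whereas with no scaling 2 were above 0 and 5 below. With the listed background subtracted they ran from −0.088 to 1.31, with 5 above 0 and 2 below.

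Leukocyte miRNAs were measured in 4 of 7 members on the DSS array and 3 of 7 on the control array, with sums of 166.1 (DSS) and 56.4 (control) over blanks and members from −0.43 to 80.6 (DSS) and from −3.33 to 20.1 (control). miR-142a-3p, miR-155-5p and miR-146a-5p were measured on neither array. The 3 measured on both differed by 0.15 to 1.07 after normalisation and by −0.78 to −0.01 with spike scaling. Relative to the median of all miRNAs, the latter range was 0.24 to 1.01. With the listed background subtracted 1 of 3 was higher (49.4% over all 995 miRNAs). The highest of them was the lymphocyte miRNA miR-150-5p, which read 202.4 on the DSS array and 106.3 on the control array, 2.09-fold higher after normalisation, with 2 of the 995 higher still. Red cell miRNAs gave sums of 136.2 (DSS) and 87.4 (control), with 2 of 3 measured on each array. Those 2 differed by 0.19 and 0.73 (−0.91 and −0.39 with spike scaling, or 0.11 and 0.63 relative to the median of all miRNAs). With the listed background subtracted 1 of those 2 was higher. Endothelial miRNAs gave 20.4 (DSS) and 11.6 (control), with 1 of 2 measured on each, and that 1 differed by −0.06 (0.052 with no scaling). The part of other cells in the differences of miR-125b-5p and miR-99b-5p was not tested, and in bulk RNA fewer cells of a type and less RNA per cell cannot be told apart.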

How the data were processed

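Total RNA of 2 samples, DSS (n = 1) and control (n = 1), was labelled with Hy5 and hybridised to 1 array each, per the labels' protocols; groups follow the agent named in the labels. The deposited scanner files give a median spot intensity and a background intensity for each of 3200 spots, combined from scans at 3 gains per the file headers. Neither the scanner software nor the array's maker is named in the labels or headers. The authors' deposited table has 1900 rows and lists a linear intensity for 1169 (DSS) and 1070 (control) of them, with a median of 25 over the listed values of each array, and null for the rest; a listed value equalled spot minus blank mean times 0.787 (DSS) or 0.563 (control).

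The normexp model of limma was applied to the spots (limma 3.58.1, R 4.3.3; offset 50, all spots), and values were log2 transformed and quantile normalised over miRNA probes. Blank means leave out the 45 highest and 45 lowest of 896 spots, 1 probe with a poor flag was left out, and 12 probes name several miRNAs. No test was possible with 1 array a group, so a fold of 2 or more on both-measured probes was counted. For a probe measured on 1 array, the bound sets its value against the higher of its own value and the lowest measured value on the other array. The main procedure was tested on simulated arrays with a constant background value per array, and read on the brighter probes. That test did not cover dim probes or a background that follows the spot. Members, lists and settings were chosen with earlier results of these data known. Named miRNAs are the members, the other strands of their hairpins, let-7 strands of their clusters, miRNAs of the same seed, the 3 nearest to miR-99b-5p and miR-125b-5p, and list examples. Alternatives covered scaling, background correction, the authors' values, the detection limit, the dim-probe filter and the fold threshold.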

Additional observations from a re-analysis of the deposited data

How the results depend on the processing

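The count of members at 2-fold or more was 1 in the main setting and under 7 scaling, filter or background settings and the 3 SD detection limit. It was 2 with blank subtraction, 2 with an offset of 0, 2 in the authors' deposited table and 2 at 1.5-fold, 3 with scaling to the spike control spots and 0 with the listed background subtracted from each spot. The distance between the locus means, −1.87 in the main setting, stayed below 0 under all 13 alternatives: −2.51 with blank subtraction, −2.36 with an offset of 0, −2.34 in the authors' deposited table, −1.58 with no background correction and −0.93 with the listed background subtracted from each spot. Scalings by 1 factor per array share a distance of −1.75. The cause of the smaller values was not tested. miR-99b-5p was at least 2-fold lower under 12 of 13 alternatives and miR-125b-5p at least 2-fold higher under 3. The 13 are not separate checks. Normalising only probes measured on 1 array or more, and the 3 SD limit, returned the main differences of the 6 members unchanged. miR-10a-5p changed sign under 4, miR-125a-5p, miR-125b-5p and miR-10b-5p under 1 each, and miR-125a-3p under 0. A scaling by 1 factor per array shifts all miRNAs alike. Relative to the median of all miRNAs, the 6 members kept their sign under all 13 alternatives, except miR-10a-5p with the listed background subtracted (−0.07). Scaling moved the median of all measured miRNAs to −0.15 (median), 0.28 (75th percentile over miRNAs measured on both arrays) and −1.02 (spike controls), and it was 0.21 in the authors' table. Relative to that median, spike scaling left miR-99b-5p at −2.49 and miR-125b-5p at 0.60. With the limit at 3 SD, miR-99a-5p was measured on neither array. Signal over background limits miR-99a-5p, miR-100-5p and miR-99b-3p, for which no fold could be read. No paired analysis was possible because each group holds 1 array.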
